A study of Drosophila melanogaster with 12 samples.

Results

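The genes described here are the 3 superoxide dismutases of Drosophila melanogaster, the copper chaperone that loads one of them, and catalase: Sod1 (Dmel_CG11793), Sod2 (Dmel_CG8905), Sod3 (Dmel_CG9027), Ccs (Dmel_CG17753) and Cat (Dmel_CG6871). They were chosen by symbol in the table of raw counts. All 5 were found there among 17868 genes, and all 5 were among the 9863 genes with enough reads to be tested. In the Ensembl annotation used here Sod1 and Cat lie on chromosome arm 3L and Sod2, Sod3 and Ccs on 2R, and no other annotated gene overlaps any of them.

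Superoxide, the radical that leaks from the respiratory chain and is made by several oxidases, is converted to hydrogen peroxide and oxygen by superoxide dismutases. Sod2 is the manganese enzyme of the mitochondrial matrix, Sod1 the copper and zinc enzyme of the cytosol, and Sod3 the copper and zinc enzyme with a secretion signal that acts outside the cell. Ccs delivers copper to the copper and zinc enzyme, and catalase, mostly in peroxisomes, breaks the hydrogen peroxide down to water and oxygen.

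RNA was sequenced from embryos of 4 genotypes, Drp1SG, SOD2i, Drp1SG;SOD2i and Control, with 3 biological replicates each. The Drp1 protein is the GTPase that constricts and divides mitochondria, and the series asks how mitochondrial fusion and fission bear on gene expression. The labels do not say what SG stands for or which promoter drives either transgene, and the name SOD2i was taken to mean RNA interference that targets Sod2. Replicates were pools of 70 to 100 hand-sorted embryos at cellularization and gastrulation, and nothing more is given of the Control genotype than its name. Genotypes that laid enough eggs were collected for 1 h and aged for 1.5 to 2 h, the others were collected for 2.5 to 3 h. Which of these applied to which genotype is not in the labels, so collection window and genotype cannot be told apart.

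The 12 libraries held 61757756 to 91949037 counts, and replicates of a genotype differed by more than sampling noise. Drp1 itself averaged 84.0 ± 17.5 CPM in Drp1SG, 22.1 ± 3.02 CPM in SOD2i and 43.6 ± 0.645 CPM in Drp1SG;SOD2i, against 36.0 ± 2.41 CPM in Control. Levels are given in CPM, counts scaled to 1e+06 of a library size scaled by TMM, and group values are means ± SD over 3 replicates. Fold changes are on the log2 scale ± standard error, with p-values from edgeR's quasi-likelihood test adjusted over the 9863 tested genes (Benjamini-Hochberg), and a gene was called at an adjusted p under 0.05.

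Sod2 transcripts were nearly lost in both genotypes that carry SOD2i and were close to the Control level in Drp1SG. The 3 SOD2i libraries held 1.76, 2.34 and 1.38 CPM, and the 3 Drp1SG;SOD2i libraries held 2.51, 3.54 and 3.08 CPM. Control libraries held 50.6, 50.3 and 51.6 CPM. All 6 libraries with SOD2i lay far below every other library, so Sod2 separated the libraries labelled with SOD2i from those without it. In counts, SOD2i libraries kept 98 to 150 Sod2 reads and Drp1SG;SOD2i libraries 174 to 247, against 3101 to 3406 in Control libraries. Sod2 fell by 4.80 ± 0.19 in SOD2i relative to Control, to 3.59% of the Control mean (adjusted p = 2.79e-08). In Drp1SG;SOD2i it fell by 4.06 ± 0.18, to 5.99% of the Control mean (adjusted p = 1.89e-07).

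The remaining Sod2 level was not the same in both. Every Drp1SG;SOD2i library lay above every SOD2i library, with means of 3.04 ± 0.513 CPM in Drp1SG;SOD2i and 1.82 ± 0.486 CPM in SOD2i. The log2 difference was 0.74 ± 0.17 (adjusted p = 0.0126). The call was lost when only these 2 genotypes were fitted (adjusted p = 0.0627). In Drp1SG alone the Sod2 libraries held 53.5, 46.7 and 48.3 CPM, which overlapped Control (log2 fold change -0.04 ± 0.16, adjusted p = 0.896). Set against Drp1SG, Sod2 in Drp1SG;SOD2i fell by 4.02 ± 0.18 on the log2 scale (adjusted p = 2.06e-07). The interaction, the log2 effect of SOD2i with Drp1SG minus its effect without Drp1SG, was 0.78 ± 0.23 for Sod2 (adjusted p = 0.0414), and it passed the threshold in 2 of 12 leave-one-out fits.

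**Figure D1:**
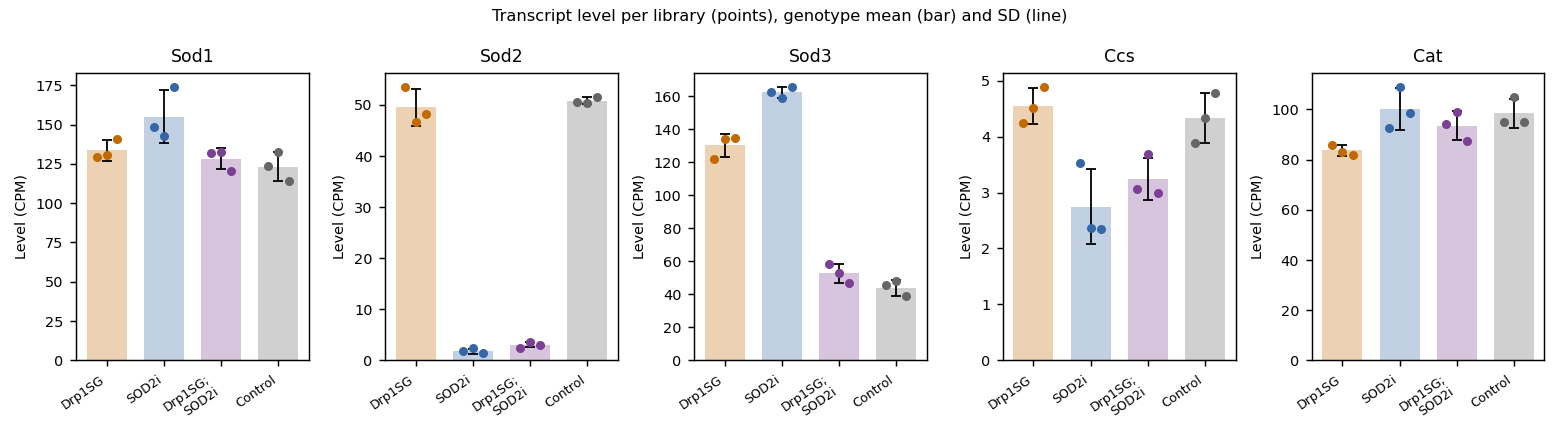
Transcript level (CPM) of Sod1, Sod2, Sod3, Ccs and Cat in each of the 12 libraries, as points, with the genotype mean as a bar and the SD over 3 replicates as a line; vertical scales start at 0 and differ between panels. Sod2 is nearly absent in both genotypes with SOD2i, while Sod3 stands at 122 to 165 CPM in Drp1SG and SOD2i libraries and at 38.7 to 58.2 CPM in Drp1SG;SOD2i and Control libraries.

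Sod3, the secreted dismutase, was the member that rose most. It rose about 3-fold or more in each single genotype and stood close to the Control level in embryos with both labels. Those embryos did not hold Drp1 RNA at the Drp1SG level. Drp1 averaged 84.0 CPM in Drp1SG and 43.6 CPM with both labels, against 36.0 CPM in Control. Whether this difference in Drp1 RNA bears on Sod3 was not tested. The 3 Drp1SG libraries held 122, 134 and 134 CPM, and the 3 SOD2i libraries held 163, 159 and 165 CPM. The Drp1SG;SOD2i libraries held 58.2, 53.0 and 46.6 CPM, against 45.3, 48.1 and 38.7 CPM in Control libraries. Neither single genotype overlapped Drp1SG;SOD2i or Control, while the lowest Drp1SG;SOD2i library lay within the Control range. In these whole-embryo pools, a change in the number of cells that express a gene and a change in its RNA per cell cannot be told apart.

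The means of Sod3 were 130.2 ± 6.95 CPM in Drp1SG and 44.0 ± 4.83 CPM in Control, 2.96 times as much (log2 fold change 1.56 ± 0.10, adjusted p = 1.89e-06). In SOD2i the mean was 162 ± 3.37 CPM, 3.68 times Control (log2 fold change 1.88 ± 0.10, adjusted p = 2.06e-07). Both rises were called in every leave-one-out fit, where the log2 fold change was between 1.46 and 1.64 in Drp1SG and between 1.78 and 1.96 in SOD2i. In Drp1SG;SOD2i the mean of 52.6 ± 5.82 CPM was 1.19 times Control by the fit, and no call was made (log2 fold change 0.26 ± 0.10, adjusted p = 0.123).

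Ordered by level, Sod3 was highest in SOD2i, then in Drp1SG, then in Drp1SG;SOD2i and lowest in Control. Drp1SG was below SOD2i by 0.32 ± 0.10 on the log2 scale (adjusted p = 0.0280). That step was small, and leaving out any 1 Drp1SG replicate, or SOD2i replicate 1 or 3, took the adjusted p to between 0.0552 and 0.112. The next step was large: Drp1SG;SOD2i was below Drp1SG by 1.31 ± 0.10 (adjusted p = 1.24e-05) and below SOD2i by 1.62 ± 0.10 (adjusted p = 2.08e-06). The last step, between Drp1SG;SOD2i and Control, was the one not called.

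The interaction of both genotypes was tested directly, as the log2 effect of SOD2i in Drp1SG embryos minus its log2 effect without Drp1SG. For Sod3 it was -3.19 ± 0.14 (adjusted p = 8.47e-08), the fifth smallest p of all 9863 genes and the ninety-seventh lowest value. Sod3 was thus higher with SOD2i among embryos without Drp1SG and lower with SOD2i among embryos with Drp1SG. As CPM, the gain over Control was 86.2 in Drp1SG, 118 in SOD2i and 8.59 in Drp1SG;SOD2i. Single effects that multiplied would have put embryos with both labels at 479.8 CPM, of which the measured level was 10.97%. Effects that added would have put them at 248 CPM. These expected levels take each single effect at its full size. Drp1 RNA was lower with both labels than in Drp1SG, and remaining Sod2 RNA was higher than in SOD2i. Across leave-one-out fits the interaction was between -3.27 and -3.08 and was called each time.

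**Figure D2:**
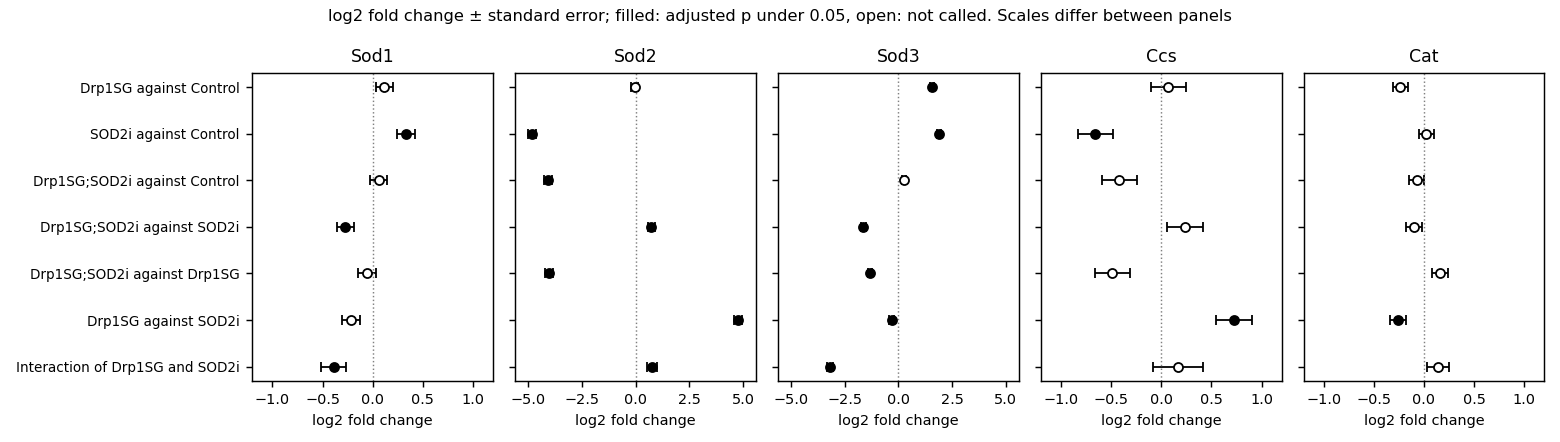
Log2 fold change ± standard error of each member in 6 comparisons and, in the bottom row, the interaction of Drp1SG and SOD2i, which is a difference of log2 fold changes; horizontal scales differ between panels, filled points have an adjusted p under 0.05 and open points do not. Sod3 is filled in every comparison except Drp1SG;SOD2i against Control, and Cat is filled in Drp1SG against SOD2i alone.

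Some markers of developmental material also differed between the genotypes. Of 20 unstable maternal transcripts, 19 were tested and mtrm was at 0 in all 12 libraries. In Drp1SG 9 were called and in SOD2i 2, all higher, which is 47.4% of the 19 in Drp1SG and 10.5% in SOD2i. Of all tested genes 9.72% were called higher in Drp1SG and 10.3% in SOD2i, so the SOD2i share was near that of all genes. In Drp1SG;SOD2i edgeR called 0, with 4 higher at an unadjusted p under 0.05, and DESeq2 called 2 and voom 0. Their summed level was 3784 to 4649 CPM in Drp1SG, 2675 to 4328 CPM in SOD2i and 3171 to 4031 CPM in Drp1SG;SOD2i, against 2399 to 3621 CPM in Control. The Drp1SG sums lay above all Control sums, while those of SOD2i and Drp1SG;SOD2i overlapped Control.

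Of 14 early zygotic genes, 11 were tested, and nullo, bnk and Sry-alpha were listed at 0 in all 12 libraries. These genes are known for their transcription as the embryo forms cells, so a listed 0 may be a failed count, and their summed level below leaves them out. In Drp1SG 7 fell, in SOD2i 2 rose, and in Drp1SG;SOD2i 1 fell. These were 63.6%, 18.2% and 9.09% of the 11. Of all tested genes 8.83% were called lower in Drp1SG, 10.3% higher in SOD2i and 4.29% lower in Drp1SG;SOD2i. The summed level of the 11 was 1851 to 2112 CPM in Drp1SG and 3328 to 3671 CPM in SOD2i. It was 2417 to 3084 CPM in Drp1SG;SOD2i, against 2236 to 3490 CPM in Control. Much of this sum was slam, at 1331 ± 637 CPM in Control and 1887 ± 36.0 CPM in SOD2i. The mean log2 level of the 11 was 6.68 to 6.75 in Drp1SG and 7.25 to 7.54 in SOD2i. In Drp1SG;SOD2i it was 6.77 to 7.16, and in Control 7.08 to 7.22. On that scale all SOD2i libraries lay above all Control libraries, and all Drp1SG libraries below them. Of 7 pole cell genes, 3 rose in Drp1SG, which is 42.9% beside 9.72% of all tested genes. The genes pgc, nos and gcl are also on the maternal list, and the rise of pgc in Drp1SG is counted in both lists. EdgeR called 0 in SOD2i and 0 in Drp1SG;SOD2i, where 1 and 2 had an unadjusted p under 0.05, DESeq2 called 1 in each and voom 0. Their sums were 468 to 540.5 CPM in Drp1SG, 369 to 493 CPM in SOD2i and 392 to 476 CPM in Drp1SG;SOD2i, against 328 to 439.7 CPM in Control.

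Of 12 genes of later embryos, such as the muscle myosin Mhc, 10 were tested. In Drp1SG 3 rose, in SOD2i 2 rose and 1 fell, and in Drp1SG;SOD2i 3 rose. The shares were 30% higher in Drp1SG, 20% higher and 10% lower in SOD2i, and 30% higher in Drp1SG;SOD2i. Of all tested genes 9.72% were called higher in Drp1SG, 10.3% higher and 12.8% lower in SOD2i, and 4.62% higher in Drp1SG;SOD2i. Among the called genes, elav averaged only 0.0317 CPM and Mlc1 0.0734 CPM in Control. NimC1, a haemocyte receptor, was at 0 in 10 of 12 libraries. The summed level of the list was 216 to 257 CPM in Drp1SG and 257 to 330.1 CPM in SOD2i. It was 235 to 273 CPM in Drp1SG;SOD2i, against 239 to 254 CPM in Control. Much of this sum was srp, at 191 ± 3.81 CPM in Control. The mean log2 level of the list was 1.14 to 1.99 in Drp1SG and 0.568 to 1.00 in SOD2i. With both labels it was 1.31 to 2.41, against 0.219 to 0.811 in Control. On that scale SOD2i overlapped Control, and the other genotypes lay above every Control library. With the mean log2 level of the maternal list as a covariate, Sod3 rose by 1.41 ± 0.11 in Drp1SG (adjusted p = 4.24e-06) and by 1.85 ± 0.08 in SOD2i (adjusted p = 5.51e-09), and its interaction was -3.07 ± 0.12 (adjusted p = 5.66e-09). The mean log2 level of the maternal list was 5.68 to 6.14 in Drp1SG and 4.12 to 5.18 in Control, without overlap. The fit therefore cannot tell the maternal list and Drp1SG apart. The part of the other 3 marker lists in the Sod3 result was not tested.

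The genes beside Sod3 on the chromosome were looked at after its values were seen, and their levels are not given here. Of the 3 nearest tested genes on each side, sprt rose in SOD2i (log2 fold change 0.58, adjusted p = 0.00659), and its interaction was -0.71 (adjusted p = 0.0178). Its log2 fold change in Drp1SG was 0.33 (adjusted p = 0.0921). CG13203 fell by 4.25 in SOD2i (adjusted p = 0.0218), with an interaction of 5.62 (adjusted p = 0.0237), the sign opposite to that of Sod3. CG13203 was 3.67 higher on the log2 scale in Drp1SG;SOD2i than in SOD2i without a call (adjusted p = 0.0549), so its fold changes are imprecise. Smyd4-3, Drip, Tsp47F and Tapdelta were not called in any comparison with Control.

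Sod1, the cytosolic dismutase, had the highest level per exon length of the 5 members in every genotype and moved little. The Drp1SG libraries held 129, 131 and 141 CPM, the SOD2i libraries 149, 143 and 174 CPM, and the Drp1SG;SOD2i libraries 132, 133 and 120.5 CPM, against 124, 132 and 114 CPM in Control libraries. All 3 SOD2i libraries lay above all 9 others, and the other 3 genotypes overlapped each other. Sod1 rose by 0.33 ± 0.09 in SOD2i relative to Control (adjusted p = 0.0167), a mean of 155 ± 16.6 CPM against 123 ± 9.13 CPM. SOD2i replicate 3 was the highest library and Control replicate 3 the lowest. Without SOD2i replicate 3 the adjusted p was 0.0774, without Control replicate 3 it was 0.0814, and it was 0.106 when only these 2 genotypes were fitted.

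Sod1 was lower in Drp1SG;SOD2i than in SOD2i, with means of 128 ± 6.84 and 155 ± 16.6 CPM (log2 fold change -0.27 ± 0.09, adjusted p = 0.0459). It was not called in Drp1SG against Control (0.12 ± 0.09, adjusted p = 0.390) or in Drp1SG;SOD2i against Control (0.06 ± 0.09, adjusted p = 0.724). Its interaction was -0.39 ± 0.12 (adjusted p = 0.0495), of the same sign as that of Sod3 and much smaller. Both of these Sod1 calls were marginal. The difference between Drp1SG;SOD2i and SOD2i was lost in 10 of 12 leave-one-out fits, with adjusted p up to 0.223, and the interaction in 11 of 12, with adjusted p up to 0.132.

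Ccs, the copper chaperone, had the lowest level per exon length of the 5 in every genotype except those with SOD2i, where Sod2 was lower. The Drp1SG libraries held 4.24, 4.52 and 4.89 CPM, the SOD2i libraries 3.53, 2.37 and 2.34 CPM, and the Drp1SG;SOD2i libraries 3.06, 3.68 and 2.98 CPM, against 3.88, 4.33 and 4.78 CPM in Control libraries. All 6 libraries with SOD2i lay below all 6 without it. Ccs fell by 0.65 ± 0.18 in SOD2i relative to Control (adjusted p = 0.0191), to 63.5% of the Control mean. The adjusted p was 0.0509 without Control replicate 2, 0.0590 without Control replicate 3, 0.0535 without SOD2i replicate 2, 0.0829 without SOD2i replicate 3 and 0.0948 when only these 2 genotypes were fitted. In Drp1SG;SOD2i the log2 fold change of -0.42 ± 0.17 was not called (adjusted p = 0.167), although the libraries did not overlap Control. These values rest on 152 to 432 counts per library. Ccs was higher in Drp1SG than in SOD2i (log2 fold change 0.73 ± 0.18, adjusted p = 0.00988), its interaction was 0.17 ± 0.25 (adjusted p = 0.723), and in Drp1SG against Control it was not called (0.07 ± 0.17, adjusted p = 0.816).

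Cat, catalase, was not called in any comparison with Control. The Drp1SG libraries held 85.9, 83.2 and 81.9 CPM, the SOD2i libraries 92.7, 109 and 98.7 CPM, and the Drp1SG;SOD2i libraries 94.2, 99.0 and 87.5 CPM, against 95.2, 105 and 95.0 CPM in Control libraries. Drp1SG was the lowest genotype and its libraries overlapped no other. Its log2 fold change against Control was -0.23 ± 0.08, just outside the threshold (adjusted p = 0.0555), with means of 83.7 ± 2.03 and 98.4 ± 5.73 CPM. It was called with DESeq2 size factors, upper-quartile scaling, a filter of 1 CPM in 3 libraries and the DESeq2 Wald test, with adjusted p between 0.0255 and 0.0446. Cat was lower in Drp1SG than in SOD2i by 0.26 ± 0.08 on the log2 scale (adjusted p = 0.0267), a call lost without Drp1SG replicate 2 or 3 or SOD2i replicate 2 or 3, with upper-quartile scaling (adjusted p = 0.0644) and with the maternal covariate (adjusted p = 0.105). Against Control its log2 fold change was 0.02 ± 0.08 in SOD2i (adjusted p = 0.859) and -0.07 ± 0.08 in Drp1SG;SOD2i (adjusted p = 0.604), and its interaction was 0.14 ± 0.11 (adjusted p = 0.458).

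Counted over the 5 members, 1 was called in Drp1SG against Control, higher, where 18.6% of all tested genes were called, 9.72% higher and 8.83% lower. In SOD2i against Control 4 were called, 2 higher and 2 lower, beside 23.2% of all tested genes, 10.3% higher and 12.8% lower. In Drp1SG;SOD2i against Control 1 was called, lower, beside 8.91% of all, 4.62% higher and 4.29% lower. In Drp1SG;SOD2i against SOD2i 3 were called, 1 higher and 2 lower, beside 19.3% of all, 10.5% higher and 8.79% lower. In Drp1SG;SOD2i against Drp1SG 2 were called, both lower, beside 10.9% of all, 5.05% higher and 5.82% lower. In Drp1SG against SOD2i 4 were called, 2 higher and 2 lower, beside 29.3% of all, 15.8% higher and 13.4% lower. The interaction was called for 3, 1 positive and 2 negative, beside 16.5% of all genes, 9.2% positive and 7.34% negative. The comparisons with Control share the Control libraries, and Sod2 was taken, from the name, to be the target of SOD2i.

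In the authors' deposited table, the log2 fold change of Sod3 was 1.56 in Drp1SG (adjusted p = 2.1e-34), 1.89 in SOD2i (adjusted p = 1.09e-43) and 0.26 in Drp1SG;SOD2i (adjusted p = 0.268). That deposited table gave Sod1 in SOD2i a log2 fold change of 0.34 with an adjusted p of 0.08, above the threshold, where edgeR put it below. Ccs in SOD2i had -0.64 there (adjusted p = 0.0459), and Cat in Drp1SG had -0.24 (adjusted p = 0.0553), both on the same side of the threshold as in edgeR.

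Levels of different genes were compared per kb of exons, with exon lengths of 735 bases for Sod1, 1015 for Sod2, 2018 for Sod3, 977 for Ccs and 1993 for Cat. In Control, Sod1 stood at 168 CPM per kb, Sod2 at 50.1, Cat at 49.4, Sod3 at 21.8 and Ccs at 4.43. Sod2 and Cat were thus close to each other, and Sod3 was the lowest of the 3 dismutases. In SOD2i, Sod1 stood at 211 CPM per kb and Sod3 at 80.4, above Cat at 50.2, with Sod2 at 1.80. In Drp1SG, Sod3 at 64.5 CPM per kb also exceeded Cat at 42.0 and Sod2 at 48.8.

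The summed level of the 3 dismutase transcripts differed between genotypes in amount and in makeup. Summed over Sod1, Sod2 and Sod3 it was 295 ± 9.61 CPM per kb in Drp1SG, 293 ± 23.6 in SOD2i and 204 ± 11.8 in Drp1SG;SOD2i, against 239.7 ± 14.1 in Control. All libraries of Drp1SG and SOD2i were above all Control libraries, and all of Drp1SG;SOD2i were below them. These sums have no test of their own, and each rests on the 3 genes described above. They count RNA, not enzyme, and the 3 products work in different compartments.

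Sod3 made up 21.9% ± 0.985 of the summed dismutase level in Drp1SG, 27.5% ± 1.64 in SOD2i and 12.8% ± 0.812 in Drp1SG;SOD2i, against 9.09% ± 0.499 in Control. Sod2 made up 16.5% ± 1.48 in Drp1SG, 0.623% ± 0.208 in SOD2i and 1.48% ± 0.262 in Drp1SG;SOD2i, against 21.0% ± 1.52 in Control. Sod1 therefore held 61.6% ± 0.999 in Drp1SG, 71.9% ± 1.83 in SOD2i and 85.7% ± 0.571 in Drp1SG;SOD2i, against 69.96% ± 1.07 in Control. Relative to Sod1 per kb, Sod3 was at 0.355 ± 0.0165 in Drp1SG, 0.383 ± 0.0321 in SOD2i and 0.149 ± 0.0105 in Drp1SG;SOD2i, against 0.130 ± 0.00554 in Control.

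**Figure D3:**
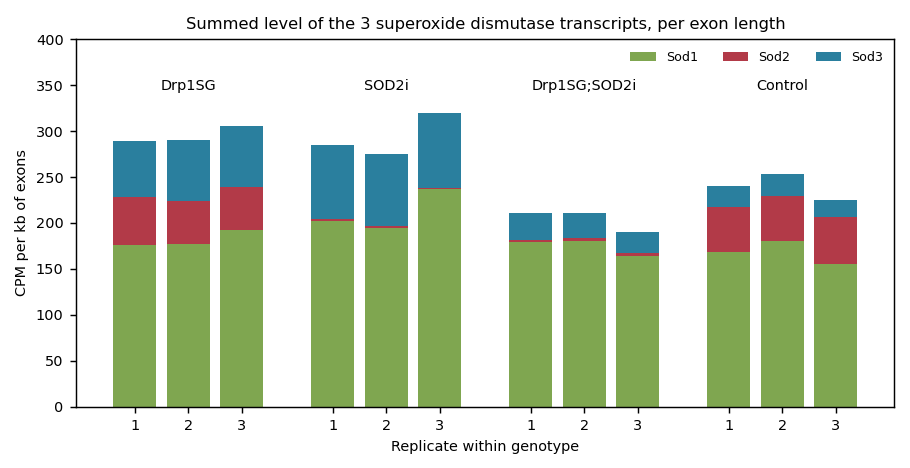
Summed level of the 3 superoxide dismutase transcripts (CPM per kb of exons) in each library, stacked as Sod1, Sod2 and Sod3 from the bottom, with replicates 1 to 3 of each genotype side by side. Sums are 190.0 to 211 in Drp1SG;SOD2i and 225 to 253 in Control, and the Sod2 layer is all but gone in the 6 libraries with SOD2i.

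For each member called against Control, the 3 genes whose levels ran most nearly in parallel over the 12 libraries were taken, by the root mean square difference of log2 CPM after centring each gene on its Control mean. Candidates were 4315 genes with a mean of at least 5 CPM and a symbol that is not a number. The nearest to Sod3 was vari, a scaffold protein of septate junctions, at a difference of 0.29. It averaged 53.6 CPM in Drp1SG, 60.6 in SOD2i and 29.2 in Drp1SG;SOD2i, against 20.8 in Control. Fas3, a cell adhesion protein, followed at a difference of 0.44, with 15.0 CPM in Drp1SG, 10.9 in SOD2i and 4.35 in Drp1SG;SOD2i, against 3.07 in Control. Gabat, the transaminase that degrades GABA, came next at 0.47, with 166 CPM in Drp1SG, 184 in SOD2i and 132 in Drp1SG;SOD2i, against 73.7 in Control. That all 3 were high in both single genotypes follows from how they were picked. Gabat kept more of its gain in Drp1SG;SOD2i than Sod3 did.

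None of the candidates came near the pattern of Sod2. That follows in part from the measure, which grows with the size of a change. Sod2 moved far and Sod1 little, so the distances of their nearest genes cannot be set against each other. Calx, a sodium and calcium exchanger, was nearest, at a root mean square difference of 1.85, followed by BobA at 1.87 and the tachykinin receptor gene TkR86C at 1.98. Sod1 had many close neighbours: capt, the cyclase-associated protein, differed by 0.07, LysRS, the lysyl-tRNA synthetase, by 0.07, and Scsalpha1, a subunit of succinyl-CoA synthetase, by 0.07. Ccs was nearest to Mccc1, a subunit of methylcrotonoyl-CoA carboxylase, at 0.13, with Exo70 of the exocyst at 0.16 and the kinesin Klp68D at 0.16.

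**Figure D4:**
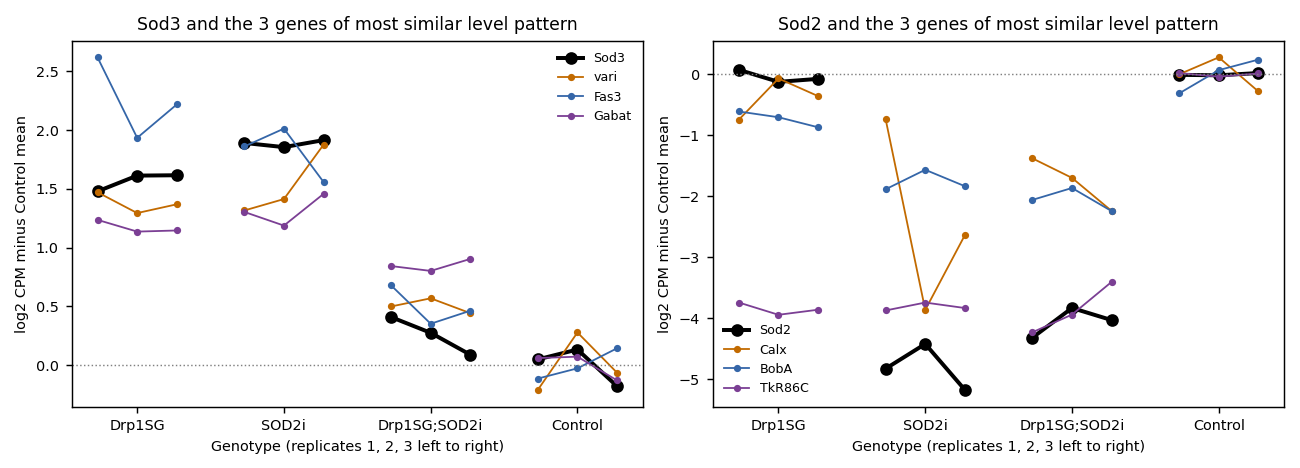
Log2 CPM minus the Control mean for Sod3 (left) and Sod2 (right), in black, with the 3 genes nearest to each by root mean square difference, in replicates 1 to 3 of each genotype; lines only join the replicates. vari, Fas3 and Gabat, picked for their likeness to Sod3, are high in Drp1SG and SOD2i, while the 3 genes nearest to Sod2 depart from it by 1.85 to 1.98.

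The counts of called genes in the lists that follow stand beside 18.6% of all tested genes called in Drp1SG, 23.2% in SOD2i and 8.91% in Drp1SG;SOD2i, each against Control. Of the 43 calls of listed genes against Control by edgeR, DESeq2 also made all and limma voom did not make 5, which are named with their genes.

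The relatives of the members were at low levels. Irc, an immune-regulated catalase, averaged 0.505 ± 0.600 CPM in Drp1SG, 0.0597 ± 0.00323 CPM in SOD2i and 0.205 ± 0.0203 CPM in Drp1SG;SOD2i, against 0.148 ± 0.0531 CPM in Control, and was not called against Control. CG31028, named Rsod by RefSeq, fell in SOD2i to 0.161 ± 0.0828 CPM, against 0.736 ± 0.163 CPM in Control (log2 fold change -2.17 ± 0.45, adjusted p = 0.00450). It averaged 0.750 ± 0.216 CPM in Drp1SG;SOD2i, and its interaction was 2.73 ± 0.60 (adjusted p = 0.00869). CG5948, or Sodq, stayed at 0.361 to 0.425 CPM in the genotype means and was not called in any of the 7 comparisons. CG31028 and CG5948 were named after their values were seen, as were CG9065, Prx2540-2 in Drp1SG, CG12338 and CG9527 below.

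Genes of copper handling, on which Sod1 and Sod3 depend, included 8 tested of 14. In Drp1SG 1 rose and 1 fell, in SOD2i 1 rose and 3 fell, and in Drp1SG;SOD2i 1 rose and 1 fell, with median log2 fold changes of -0.09, 0.05 and -0.02 against 0.01, 0.00 and 0.00 over all tested genes. The called share of the 8 was 25% in Drp1SG, 50% in SOD2i and 25% in Drp1SG;SOD2i. MTF-1, the metal-responsive transcription factor, fell in all 3: it averaged 24.1 ± 2.03 CPM in Drp1SG, 19.1 ± 3.21 in SOD2i and 24.8 ± 1.37 in Drp1SG;SOD2i, against 38.4 ± 1.55 in Control, with log2 fold changes of -0.67, -1.01 and -0.63 (adjusted p = 0.00257, 1.12e-04 and 0.00681). MtnA, a metallothionein that binds copper, rose in all 3 and was low throughout, at 1.42 ± 0.183 CPM in Drp1SG, 0.803 ± 0.375 in SOD2i and 1.54 ± 0.512 in Drp1SG;SOD2i, against 0.354 ± 0.0895 in Control (adjusted p = 0.00366, 0.0435 and 0.00508). Its call in SOD2i was not made by limma voom (adjusted p = 0.123).

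Ctr1A, the copper importer, fell in SOD2i to 9.11 ± 1.50 CPM, against 14.2 ± 1.22 CPM in Control (log2 fold change -0.64 ± 0.13, adjusted p = 0.00397). CG9065, named Cox17 by RefSeq, a copper chaperone for cytochrome oxidase in yeast, fell there too, to 1.01 ± 0.215 CPM against 2.22 ± 0.0554 CPM in Control (adjusted p = 0.00186). The interaction was called and positive for MTF-1 (1.05 ± 0.17), CG9065 (1.22 ± 0.28) and Ctr1A (0.62 ± 0.18), with adjusted p between 0.00127 and 0.0371.

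Of the peroxiredoxins, thioredoxins and genes of glutathione synthesis, which remove peroxide beside catalase, 17 of 20 were tested. In Drp1SG 4 rose and 2 fell, in SOD2i 1 rose and 3 fell, and in Drp1SG;SOD2i 1 fell, with median log2 fold changes of 0.35, -0.09 and 0.09. The called share was 35.3% in Drp1SG, 23.5% in SOD2i and 5.88% in Drp1SG;SOD2i. In SOD2i, and with 1 called gene in Drp1SG;SOD2i, it was near that of all genes. In Drp1SG, the thioredoxin Trx-2 rose to 15.8 ± 1.35 CPM, against 6.38 ± 0.857 in Control (adjusted p = 0.00645). The germline thioredoxin dhd, which is also on the maternal list, averaged 166 ± 47.5 CPM, against 25.0 ± 12.7 in Control (adjusted p = 0.00230). Trxr-2, a thioredoxin reductase, was low, at 0.552 ± 0.0654 CPM in Drp1SG and 0.230 ± 0.0289 CPM in SOD2i, against 0.0729 ± 0.0137 CPM in Control (adjusted p = 1.2e-04 and 0.00478). In Control libraries 3 counts equal 0.0443 to 0.0499 CPM. The Control level of Trxr-2 therefore rests on few reads, and the size of its rises is uncertain.

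The peroxiredoxin Prx3 of mitochondria fell slightly in Drp1SG, to 99.0 ± 1.90 CPM, against 118 ± 3.41 in Control (adjusted p = 0.0171), and Prx6005 fell to 18.2 ± 1.13 CPM, against 27.6 ± 5.22 (adjusted p = 0.00725). Prx2540-2 rose in Drp1SG to 38.7 ± 12.0 CPM and fell in SOD2i to 10.8 ± 2.76 CPM, against 21.0 ± 2.57 CPM in Control (adjusted p = 0.0154 and 0.00834). Prx2540-1 fell in SOD2i to 4.99 ± 0.883 CPM, against 7.74 ± 0.434 in Control (adjusted p = 0.0112). The Prx2540 genes are near-identical copies, so the split of reads between them is uncertain. Jafrac2, a secreted peroxiredoxin, fell in SOD2i to 20.5 ± 0.306 CPM, against 26.1 ± 0.399 (adjusted p = 0.0119), and Gss1, a glutathione synthetase, fell in Drp1SG;SOD2i to 0.774 ± 0.0465 CPM, against 1.51 ± 0.551 in Control (adjusted p = 0.0328 by edgeR and 0.0657 by limma voom, which did not call it).

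**Figure D5:**
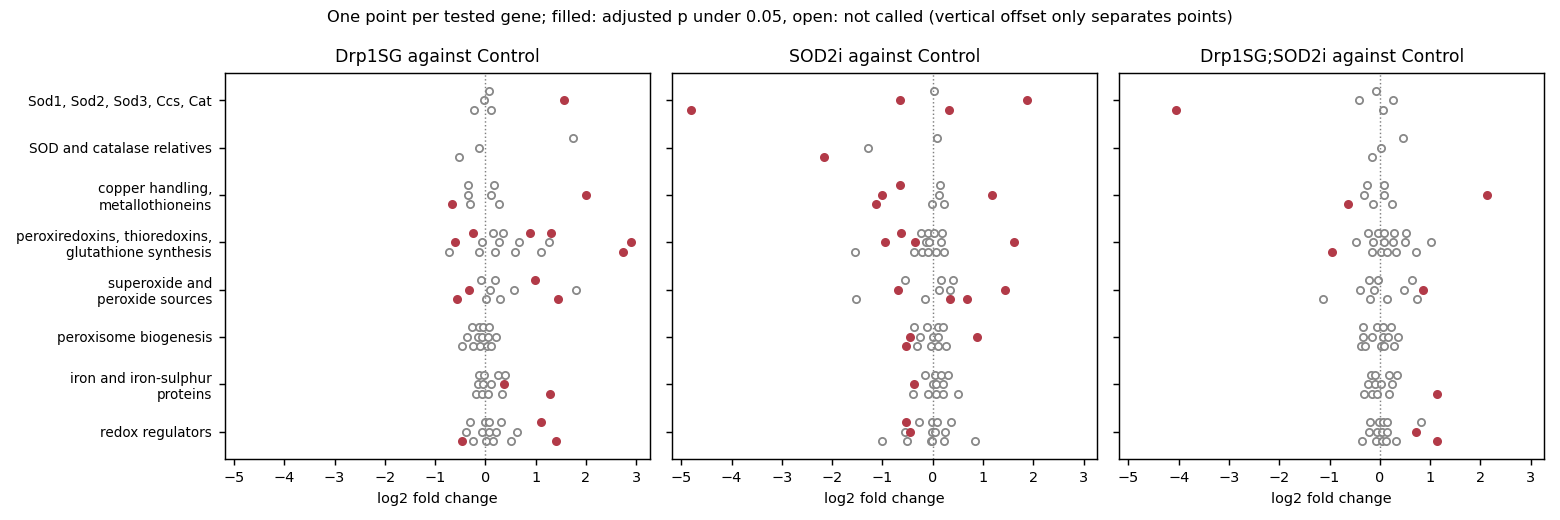
Log2 fold change against Control of each tested gene in the 5 members and 7 related lists, for Drp1SG, SOD2i and Drp1SG;SOD2i; filled points have an adjusted p under 0.05, and the vertical offset only separates points. In Drp1SG;SOD2i the member furthest from 0 is Sod2, at -4.06, and every other member lies within 0.42 of 0.

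Of 12 genes listed as superoxide and peroxide sources, 11 were tested. In Drp1SG 2 rose and 2 fell, in SOD2i 3 rose and 1 fell, and in Drp1SG;SOD2i 1 rose. Median log2 fold changes were 0.19, 0.16 and -0.03 in that order. Not all on the list are oxidases, Sardh being a dehydrogenase, and superoxide or peroxide output was not measured for any. The called share was 36.4% in Drp1SG and in SOD2i and 9.09% in Drp1SG;SOD2i, where it was near that of all genes. Sardh, the mitochondrial sarcosine dehydrogenase, rose in all 3, to 5.00 ± 0.444 CPM in Drp1SG, 4.99 ± 1.78 in SOD2i and 3.34 ± 0.355 in Drp1SG;SOD2i, against 1.84 ± 0.166 in Control (adjusted p = 0.00160, 0.00102 and 0.0426), with an interaction of -2.02 ± 0.32 (adjusted p = 0.00141). Its call in Drp1SG;SOD2i was not made by limma voom (adjusted p = 0.0832). In SOD2i, xanthine dehydrogenase ry rose to 98.4 ± 16.5 CPM, against 77.3 ± 7.21 in Control (adjusted p = 0.0453), and the NADPH oxidase Nox rose to 2.57 ± 0.520 CPM, against 1.60 ± 0.215 (adjusted p = 0.0493). Limma voom called neither in SOD2i (adjusted p = 0.05 for ry and 0.0625 for Nox). The interaction was negative for both, at -0.57 for ry (adjusted p = 0.0314) and -1.11 for Nox (adjusted p = 0.0353). Acox57D-d, an acyl-CoA oxidase of peroxisomes, rose in Drp1SG to 12.6 ± 1.70 CPM, against 6.36 ± 2.01 in Control (adjusted p = 0.0340). CG12338, named Daao1 by RefSeq, fell in Drp1SG and SOD2i (log2 fold changes -0.56 and -0.68), and CG9527, named Acox3, fell in Drp1SG (-0.33).

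All 14 peroxisome biogenesis genes, for the organelle that holds catalase, were tested, with median log2 fold changes of -0.09 in Drp1SG, -0.01 in SOD2i and 0.04 in Drp1SG;SOD2i. EdgeR called 0 in Drp1SG, where 1 had an unadjusted p under 0.05 and DESeq2 and voom called 0. It also called 0 in Drp1SG;SOD2i, where 4 had an unadjusted p under 0.05, DESeq2 called 2 and voom 0. In SOD2i Pex7 rose (log2 fold change 0.87, adjusted p = 0.0124). Of 13 iron and iron-sulphur genes tested, 2 rose in Drp1SG, 1 fell in SOD2i and 1 rose in Drp1SG;SOD2i, with medians of 0.05, 0.07 and -0.07. The called share was 15.4% in Drp1SG, 7.69% in SOD2i and 7.69% in Drp1SG;SOD2i. It was near that of all genes in Drp1SG and Drp1SG;SOD2i and below it in SOD2i, where it rests on 1 called gene. The ferredoxin Fdx1 rose to 4.18 ± 0.0713 CPM in Drp1SG and 3.81 ± 0.672 CPM in Drp1SG;SOD2i, against 1.72 ± 0.331 CPM in Control (adjusted p = 0.00156 and 0.00575). The mitochondrial iron importer mfrn rose in Drp1SG (log2 fold change 0.37, adjusted p = 0.0203), and Mvl, a divalent metal transporter, fell in SOD2i (-0.38, adjusted p = 0.0223).

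Of 16 redox regulators, 2 rose and 1 fell in Drp1SG, 2 fell in SOD2i, and 2 rose in Drp1SG;SOD2i, with medians of 0.06, -0.02 and 0.06. The called share was 18.8% in Drp1SG, 12.5% in SOD2i and 12.5% in Drp1SG;SOD2i, near that of all genes in Drp1SG and below it in SOD2i. crc, the fly ATF4 transcription factor of the integrated stress response, rose to 331 ± 15.5 CPM in Drp1SG and 253 ± 9.89 CPM in Drp1SG;SOD2i, against 155 ± 21.9 CPM in Control (adjusted p = 3.26e-05 and 0.00135). Xrp1, another stress-linked transcription factor, rose to 23.7 ± 3.28 CPM in Drp1SG and 19.8 ± 3.79 CPM in Drp1SG;SOD2i, against 8.94 ± 0.523 CPM in Control (adjusted p = 2.01e-04 and 0.00145). In SOD2i, crc was at 165 ± 17.9 CPM and Xrp1 at 7.43 ± 1.28 CPM, neither called. The interaction of crc was -0.48 ± 0.14 (adjusted p = 0.0416). dj-1beta, a redox-sensitive protein, fell in Drp1SG (log2 fold change -0.48, adjusted p = 0.0126) and SOD2i (-0.45, adjusted p = 0.0134), with an interaction of 0.86 ± 0.16 (adjusted p = 0.00331), and the stress kinase bsk fell in SOD2i (-0.53, adjusted p = 0.0194).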

How the data were processed

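Poly(T)-captured RNA of 12 embryo pools was sequenced, 3 per genotype, from 200 ng of total RNA each. The authors deposited raw counts of reads per gene, 61757756 to 91949037 per library, and these counts were tested here. The authors also deposited, for each genotype against Control, a log2 fold change and an adjusted p-value per gene, which are printed only as theirs. Upstream tools, per the submitters' processing notes and without their roles, were featureCounts 1.5.2, HISAT2 2.1.0, Bowtie2 2.2.4, DESeq2 and Trimmomatic. The strand setting and genome build are not given in the sources used here, so no coordinates are printed.

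Genes were filtered with filterByExpr and tested in edgeR 4.0.16 (R 4.3.3), with TMM scaling and 1 mean per genotype over all 12 libraries (glmQLFit and glmQLFTest, no replicate block). Comparisons were contrasts of these means, p-values were adjusted by Benjamini-Hochberg over 9863 genes, and standard errors were the log2 fold change over the square root of F. The common biological coefficient of variation was 0.176. Levels per kb used the union of exons in Ensembl BDGP6.54 release 115. RefSeq's gene table gave names and neighbours for list genes. The fitting procedure was tested on simulated data. Alternatives were DESeq2 1.42.0 size factors and Wald test, upper-quartile scaling, 2 other filters on low counts, limma 3.58.1 with voom, fits of only the genotypes compared, a replicate block, a maternal covariate and leaving out each library. The replicates are labelled biological, and p-values measure the spread between them. Ccs had 152 to 432 counts per library and Sod2 98 to 150 in SOD2i.

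The members, lists and tests were chosen with earlier results of these data known. Named were the 5 members, up to 3 called genes per list, direction and comparison with Control with the smallest adjusted p and a symbol that is not a number, and the 3 genes nearest to each called member. Exceptions are stated where they occur. Some results of the peroxisome biogenesis list in SOD2i are not reported here.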

Additional observations from a re-analysis of the deposited data

Results flagged for a closer look

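For 3 members the effect of SOD2i differed between embryos with and without Drp1SG by the interaction term of edgeR. For Sod3 the difference of log2 effects was -3.19 (adjusted p = 8.47e-08). For Sod2 it was 0.78 (adjusted p = 0.0414), the fall being smaller with Drp1SG. For Sod1 it was -0.39 (adjusted p = 0.0495). The Sod2 interaction passed the threshold in 2 of 12 leave-one-out fits and the Sod1 interaction in 1 of 12, with adjusted p up to 0.0927 and 0.132, while that of Sod3 passed in all 12.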

How the results depend on the processing

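The rises of Sod3 in Drp1SG and SOD2i, its interaction and the falls of Sod2 in both genotypes with SOD2i kept their direction and their call in all alternatives and leave-one-out fits run. Over all single-gene values, 643 kept both, 63 lost a call, 13 gained one and 11 changed sign, none of the 11 called on either side. The promoter motif alternative was not run, since no promoter sequence was used here. Causes were not tested.

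Sign changes in Drp1SG against Control were -0.0094 for Sod1, 0.226 for Sod2 and -0.0622 for Ccs with the maternal covariate, and 0.0128 for Sod2 without Drp1SG replicate 2 (leave-one-out range -0.0785 to 0.0128) and -0.0017 for Ccs without Control replicate 1 (-0.0017 to 0.139). For Cat in SOD2i they were -0.0475 with upper-quartile scaling, -0.0132 with a filter of 1 CPM in 3 libraries, -0.0180 without Control replicate 3 and -0.0455 without SOD2i replicate 2 (-0.0455 to 0.0894). For Sod1 they were -0.0079 in Drp1SG;SOD2i against Control without Control replicate 3 (-0.0079 to 0.127) and 0.0132 in Drp1SG;SOD2i against Drp1SG with the maternal covariate.

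Members called in Drp1SG against Control were 2 in place of 1 with DESeq2 size factors, upper-quartile scaling, the 1 CPM filter and the DESeq2 Wald test, Cat being the addition, and 1 to 2 leaving out 1 library. With only the genotypes compared they were 2 in place of 4 in SOD2i against Control and 1 in place of 3 in Drp1SG;SOD2i against SOD2i. Leaving out 1 library gave 2 to 4 in SOD2i against Control, 2 to 3 in Drp1SG;SOD2i against SOD2i, 2 to 4 in Drp1SG against SOD2i and 1 to 3 for the interaction.

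Over all genes, SOD2i against Control had 1263 calls in place of 2286 with only the genotypes compared. Drp1SG;SOD2i against Control had 1349 in place of 879 by DESeq2. Drp1SG;SOD2i against Drp1SG had 2511 with the maternal covariate and 1848 with only the genotypes compared, in place of 1072. The interaction had 2685 with the covariate in place of 1631. Leaving out 1 library gave 1112 to 2200 in Drp1SG against Control, 467 to 1110 in Drp1SG;SOD2i against Control, 1199 to 2112 in Drp1SG;SOD2i against SOD2i, 571 to 1261 in Drp1SG;SOD2i against Drp1SG and 1868 to 3138 in Drp1SG against SOD2i. Under upper-quartile scaling the higher and lower calls were 760 and 1010 in place of 959 and 871 in Drp1SG against Control, 385 and 420 in place of 456 and 423 in Drp1SG;SOD2i against Control, 485 and 447 in place of 498 and 574 in Drp1SG;SOD2i against Drp1SG, 632 and 1435 in place of 1019 and 1267 in SOD2i against Control, 1059 and 566 in place of 1036 and 867 in Drp1SG;SOD2i against SOD2i, and 1013 and 465 in place of 907 and 724 for the interaction.

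Replicate numbers did not pair the libraries: deviations of same-numbered libraries correlated by -0.27 to 0.22, over 0.1 in 6 of 18 pairs, and 5 of 12 libraries matched best with their own number. With the replicate number as a block, 1 member in place of 3 passed for the interaction, with adjusted p of 0.0872 for Sod1 and 0.0533 for Sod2, and Sod1 in Drp1SG;SOD2i against SOD2i had an adjusted p of 0.08. The block changed the call of no other member in any comparison.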
